A study of Mus musculus with 8 samples.

Results

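The RNA of whole geniculate ganglia of wild type mice is described here, as the baseline against which the series set its Egr4 knockout. The 4 wild type libraries were taken by their labels from the 8 libraries of the series, and levels are given for all 15110 genes of the deposited table. The mice were adult Egr4+/+ littermates on the C57Bl/6 strain and carry no other allele or treatment in the labels. The other 4 libraries came from adult Egr4-/- mice of that strain, and only the spread of their values is used below. The labelled material is every cell of the ganglion, and the labels do not give the number of ganglia per library, the ages or the sexes. RNA with an integrity number above 8 was taken, and 1 ng of it was amplified with a SMART-Seq v4 kit, made into Nextera XT libraries and read as pairs of 150 bases.

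The geniculate ganglion is the sensory ganglion of the facial nerve and lies in a canal of the temporal bone. Most of its neurons carry taste from the front of the tongue and the palate and receive ATP from taste buds through P2X receptors. A smaller population serves touch and pain of the outer ear. Each cell body is wrapped by satellite glia, axons are covered by Schwann cells, and fibroblasts, a perineurial sheath, vessels and resident macrophages make up the rest. A level in the whole ganglion is an average over these cells, so fewer cells of a type and less RNA per cell cannot be told apart.

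The 4 libraries held 48571434, 30849310, 45577436 and 44922468 counts over the listed genes. Levels of genes are compared as FPKM, which divides read counts by gene length and library size, and libraries are compared as CPM after TMM scaling. Counts of Xist, the RNA that coats the silenced X, were 418, 200 and 238 in libraries 1 to 3 and 0 in library 4. Over the 11788 genes with a mean of 5 CPM or more, the SD of the log2 difference between 2 libraries was 0.60 to 0.71 among libraries 1, 2 and 3. The 3 pairs with library 4 had 0.78 to 0.85. Across all listed genes, Spearman's rho of FPKM between 2 libraries ran from 0.939 to 0.971, as a description in which genes are not independent. Library 4 thus stood apart from the other 3. The main counts and the ranges of lists that it sets are given without it as well.

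Of the listed genes, 12509 had a mean of 1 FPKM or more on the log2 scale, 6103 had 10 or more, 856 had 100 or more and 34 had 1000 or more. The 100 most abundant genes held 28.3 ± 1.46% of the summed FPKM (SD, n = 4). In libraries 1 to 4, 459, 538, 565 and 490 genes were enough to reach 50% of the summed FPKM. The top of the order was shared only in part, since 15 genes were among the 25 most abundant in all 4 libraries and 39 in any of them.

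Ptgds (chromosome 2, 25466712 to 25469749, mm10), which encodes the prostaglandin D synthase of meninges, choroid plexus and myelinating glia, ranked first in every library. It stood at 31992, 37191, 12189 and 28965 FPKM in libraries 1 to 4, and it alone made up 6.30%, 8.31%, 2.62% and 5.78% of the summed FPKM. Library 3 was the lowest and library 2 the highest. Apoe, the lipid carrier that satellite glia and macrophages secrete, ranked 3 with 6318, 4998, 5708 and 4563 FPKM. Apod, another lipid carrier, made by Schwann cells and fibroblasts, stood at 3755, 3283, 2751 and 1892 FPKM, and Cst3, a secreted protease inhibitor of glia, averaged 1562 ± 364 FPKM (SD, n = 4). These secreted proteins of non-neuronal cells had SDs of log2 CPM of 0.21 for Apoe to 0.72 for Ptgds.

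Myelin genes were among the first 25. Mbp (chromosome 18), which compacts the myelin membrane, had 4339, 4031, 2796 and 2749 FPKM in libraries 1 to 4. Pmp22, a membrane protein of peripheral myelin, had 2234, 2111, 3103 and 1245 FPKM. It was highest in library 3 and lowest in library 4, where it ranked 30. Neuronal genes held a similar place. Nefl, the light neurofilament chain, had 1256, 1022, 1862 and 2453 FPKM. Sncg, a synuclein abundant in peripheral sensory neurons, had 1840, 951, 1713 and 1316 FPKM, and Tuba1a, the tubulin of growing and adult axons, averaged 3190 ± 705 FPKM (SD, n = 4). Most of the remaining places went to genes that most cells use. The ferritin chains Fth1 and Ftl1, which store iron, averaged 5628 ± 959 and 2595 ± 912 FPKM, and the glycolytic enzymes Aldoa and Gapdh averaged 1960 ± 369 and 1805 ± 419 FPKM (SD, n = 4 each).

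**Figure D1:**
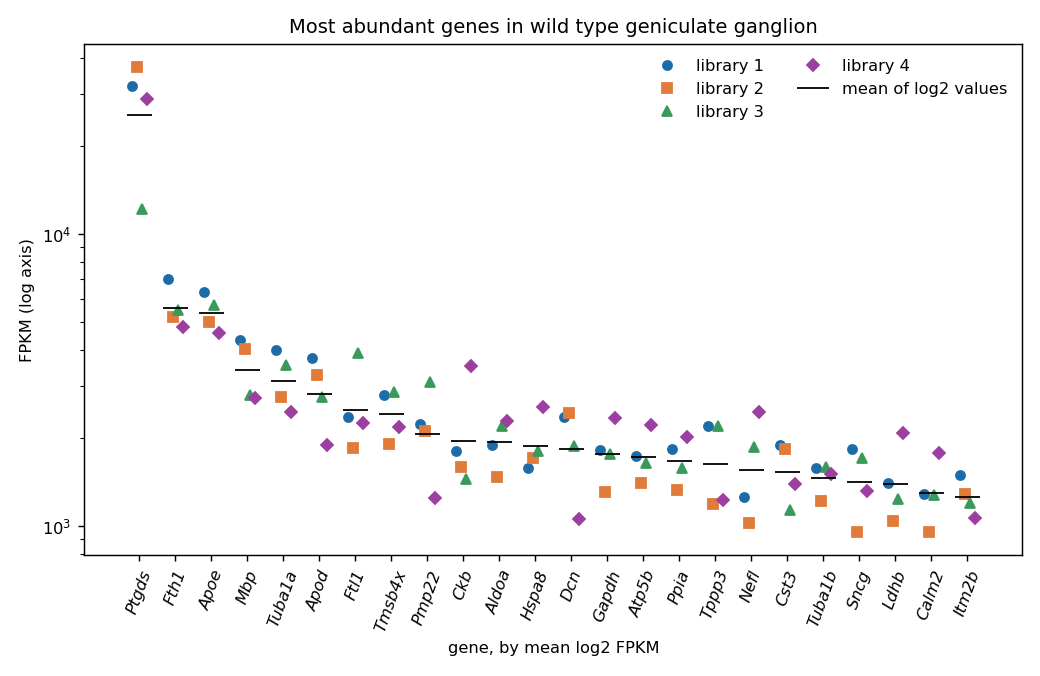
FPKM of the 25 most abundant genes, except 1 that is not shown, in each of the 4 wild type libraries, on a log axis; symbols are libraries and bars the mean of the log2 values. Ptgds lies far above the rest in every library, and Dcn and Pmp22 have their lowest symbol in library 4.

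Defining markers of the labelled tissue were present in all 4 libraries. Tlx3, a transcription factor of the neurons of this ganglion, had 20.2, 10.1, 22.5 and 17.7 FPKM in libraries 1 to 4. The ATP receptor subunits P2rx2 and P2rx3 had 78.3, 45.2, 78.8 and 83.4 FPKM and 14.3, 21.7, 30.8 and 19.3 FPKM. Htr3a, the serotonin receptor channel of taste afferents, stood at 119, 71.7, 124 and 103 FPKM. Of the 15 genes of the gustatory list 14 were listed, and 13 of them reached a mean of 5 CPM. None of these 13 had a range of 4-fold or more between libraries. Over all tested genes 633, or 5.37%, had such a range, so 0 of 13 is near that share. The median SD of log2 CPM of these 13 genes was 0.44, against 0.33 over all tested genes, and Ntrk2, the receptor for BDNF, had the smallest at 0.22. Mean log2 CPM of the list was 5.44, 5.21, 5.63 and 5.49 in libraries 1 to 4, so library 2 was the lowest and library 3 the highest.

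Markers of taste quality classes differed in how even they were. Spon2, a marker of sweet neurons, had 3.44, 2.34, 2.97 and 3.42 FPKM, and Cdh13, a marker of bitter neurons, had 10.2, 14.1, 10.6 and 12.6 FPKM. Cdh4, a marker of umami neurons, was at 0.432 to 0.902 FPKM in libraries 1 to 3 and at 2.09 FPKM in library 4. Penk, the proenkephalin gene that marks sour neurons, had 67.7, 123, 39.7 and 59.8 FPKM, with library 2 the highest. Egr2, a marker of salt neurons that myelinating Schwann cells also express, had 28.4, 21.4, 38.7 and 15.02 FPKM. Its order over the libraries was that of Pmp22, with library 3 highest and library 4 lowest in both.

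Of the 18 somatosensory list members, 13 were listed. Drgx, a defining marker, was not, nor were Prdm12, Trpv1, Mrgprd and Trpm8. The summed FPKM of the listed members was 794, 454, 865 and 1426, against 362, 259, 401 and 340 for the gustatory list. Much of it was Fxyd2 in libraries 1 to 3, and Pvalb, at 567 FPKM, and Nefh in library 4. These sums do not count neurons of either kind. The median SD of the 11 tested somatosensory members was 0.64. A range of 4-fold or more was seen in 2 of them (18.2%), against 5.37% of all tested genes. Tac1, the precursor of substance P, had 58.1, 30.0, 40.5 and 103 FPKM, and Calca, the precursor of CGRP, had 8.27, 4.75, 7.08 and 9.36 FPKM. Scn10a, a sodium channel of nociceptors, was below 1 FPKM in all 4 libraries, at 0.196 to 0.741. Piezo2, the touch channel, had 3.95, 3.68 and 3.71 FPKM in libraries 1 to 3 and 1.64 FPKM in library 4. Fxyd2, a regulator of the sodium pump, was the most abundant member, with 586, 257, 584 and 287 FPKM.

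Among glia, satellite and myelinating Schwann cell genes were abundant, with summed FPKM of 6822 to 10498 and 6027 to 10097. The satellite glia list held 15 of 15 genes, and Fabp7, a fatty acid binding protein of these cells, had 382, 213, 385 and 274 FPKM. Of the 15 satellite and 15 myelinating Schwann cell genes tested, 0 and 0 had a range of 4-fold or more, which is near the 5.37% of all tested genes. Their median SDs of log2 CPM were 0.47 and 0.52, above the 0.33 of all tested genes. Non-myelinating Schwann cell genes had the second narrowest list range, from 5.59 to 5.89 in mean log2 CPM. In that list L1cam, an adhesion molecule of these cells, had 11.9, 28.7, 45.4 and 18.03 FPKM, while Ncam1 had 23.8, 24.2, 24.3 and 25.1 FPKM.

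Genes of central glia were also measured, and they fell in another order. Mog, a protein of central myelin, had 124, 80.5, 34.2 and 51.7 FPKM in libraries 1 to 4, and Mobp had 200, 222, 67.3 and 133 FPKM. Opalin, found in oligodendrocytes and not in Schwann cells, had 5.93, 8.76, 0.243 and 1.69 FPKM. Gfap, which astrocytes and some peripheral glia make, had 673, 688, 340 and 394 FPKM, and Aqp4, the water channel of astrocytes, had 40.5, 54.7, 21.6 and 26.97 FPKM. All of these were higher in libraries 1 and 2 than in libraries 3 and 4, while Pmp22 was highest in library 3. The mean log2 CPM of the oligodendrocyte list was 6.60, 6.48, 5.25 and 5.48.

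Connective tissue and vessels gave another layer. Dcn, the proteoglycan decorin of endoneurial fibroblasts, had 2362, 2428, 1883 and 1053 FPKM, and Col1a1, the main fibrillar collagen, had 57.8, 109, 70.7 and 142 FPKM. Library 4 was thus the lowest for Dcn and the highest for Col1a1. The perineurial markers Slc2a1, a glucose transporter, and Itgb4, an integrin, had 51.6, 93.9, 47.3 and 48.2 FPKM and 17.1, 22.5, 17.9 and 6.86 FPKM. Cldn5, the tight junction protein of endothelium, had 49.4, 53.8, 48.1 and 70.9 FPKM, and Pecam1 had 5.57, 12.1, 8.89 and 8.20 FPKM. Ttr, the transthyretin of choroid plexus, ran from 41.9 to 72.6 FPKM and was highest in library 3, where Ptgds was lowest. Slc6a13 and Slc22a6, transporters of meninges, had 186, 234, 90.8 and 125 FPKM and 26.8, 43.5, 13.9 and 20.7 FPKM, so library 3 was lowest for both, as it was for Ptgds.

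Macrophage genes split into even and uneven members. The complement genes C1qa, C1qb and C1qc, made by resident macrophages, had SDs of log2 CPM of 0.16, 0.24 and 0.22. C1qb had 259, 198, 225 and 175 FPKM. Lyz2, the lysozyme of macrophages and neutrophils, had 562, 462, 2664 and 1186 FPKM, and the lysosomal protein Cd68 had 28.7, 22.5, 103 and 30.6 FPKM. Library 3 was the highest for both. Of the 14 macrophage genes tested, 4 (28.6%) had a range of 4-fold or more, against 5.37% of all tested genes.

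**Figure D2:**
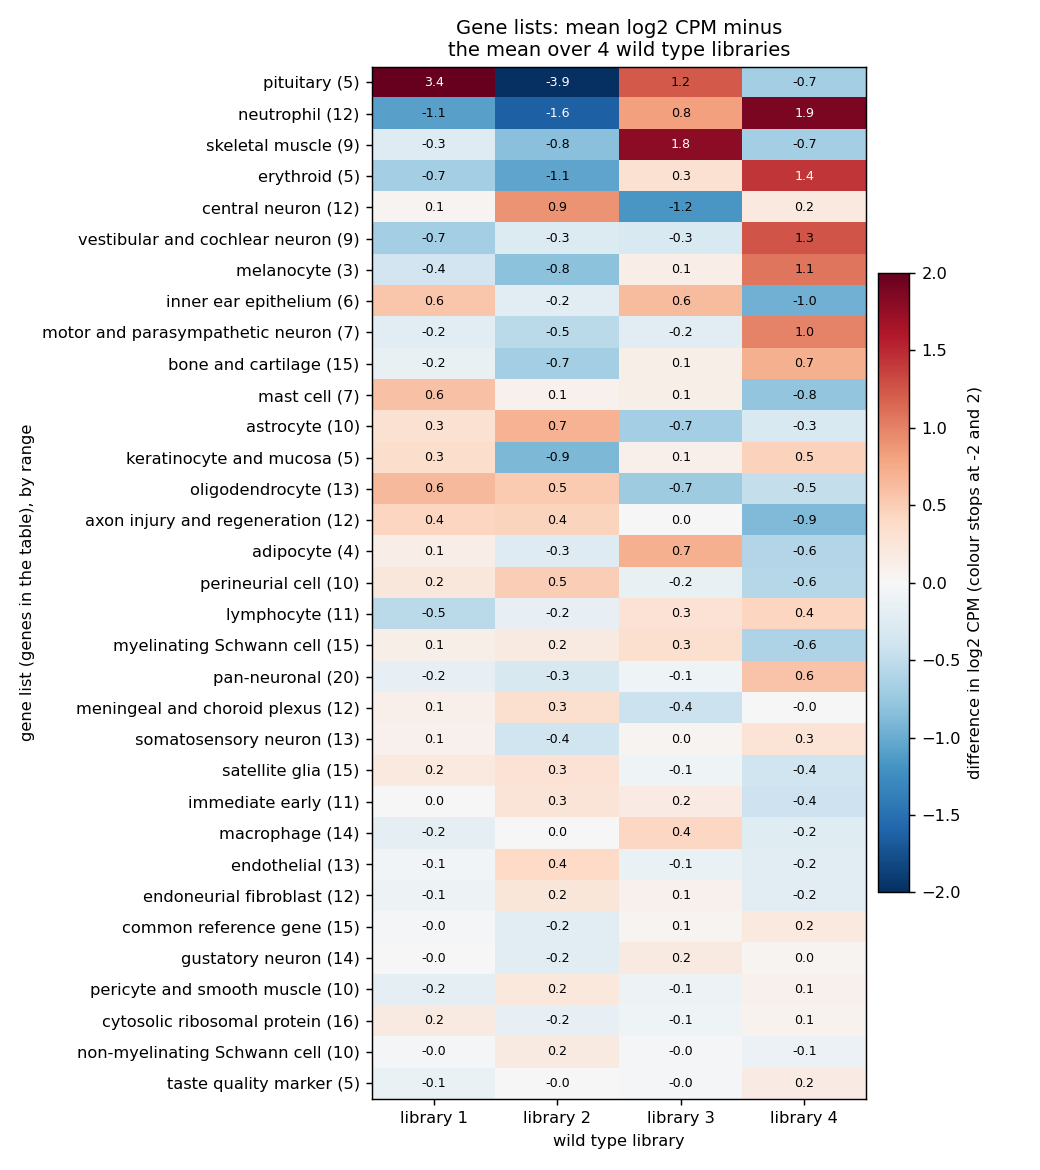
Mean log2 CPM of 33 gene lists in each wild type library, minus the mean over the 4 libraries, ordered by range; the number beside a list is its genes in the table. The mean of the pituitary list differs most, and those of the taste quality, non-myelinating Schwann cell and ribosomal protein lists differ least. A mean can stay even while members move in opposite directions. Tested members of the taste quality, non-myelinating Schwann cell and ribosomal lists had median SDs of log2 CPM of 0.58, 0.43 and 0.16. The median over all tested genes was 0.33.

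The spread of a typical gene between wild type libraries was small beside that of the uneven lists. The median SD of log2 CPM over the 11788 tested genes was 0.33, with quartiles at 0.22 and 0.49, and 467 genes had an SD of 1 or more. The tested genes had a median of 1395 counts per library, and counting error of reads made up a median of 1.40% of their variance. Spread from dissection or amplification was not separated from that between animals. The common biological coefficient of variation estimated by edgeR over all listed genes was 46.1%. Low genes varied more: of the 1678 genes at 5 to 10 CPM 18.2% had a range of 4-fold or more, against 1.45% of the 1934 genes at 100 to 500 CPM. Without library 4, 290 genes had such a range, the median SD was 0.28 and the coefficient of variation was 39.9%.

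**Figure D3:**
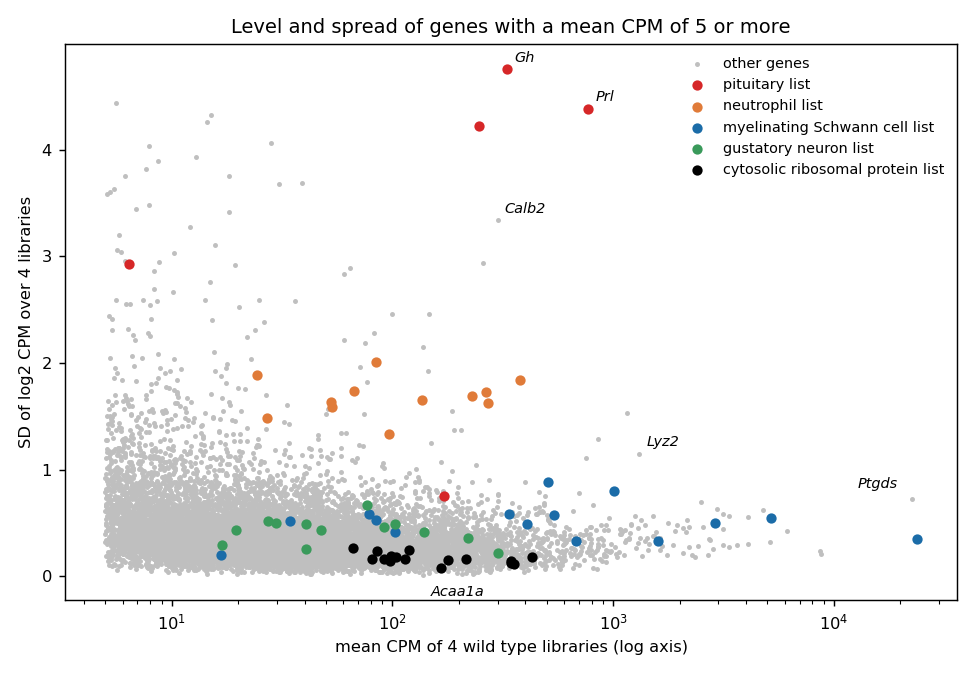
SD of log2 CPM against mean CPM (log axis) for the 11788 genes with a mean of 5 CPM or more in the 4 wild type libraries, each point a gene. The 3 pituitary hormone genes Gh, Prl and Pomc lie above an SD of 4, all 12 neutrophil genes above 1, and the gustatory, Schwann and ribosomal genes below 1.

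The least variable genes at 100 CPM or more were genes of general cell upkeep. Acaa1a, an enzyme of peroxisomal fatty acid breakdown, had 77.8, 76.3, 77.7 and 76.7 FPKM and an SD of log2 CPM of 0.014. Rtcb, the ligase that joins cut tRNAs, had 104, 100.3, 103 and 104 FPKM. Srpr, Spcs2 and Tmed4, which act in protein entry into and exit from the endoplasmic reticulum, had SDs of 0.025, 0.035 and 0.033. Ncam1, an adhesion molecule of neurons and glia, was the 1 gene among these 10 that belongs to a cell type list. These genes were chosen for their low SD. In the 4 knockout libraries, which had no part in that choice, the SD of these 10 genes ran from 0.06 for Arl6ip5 to 0.31 for Ncam1. The median over the 11676 genes at 5 CPM or more in knockout libraries was 0.33. That median is not matched for level. In wild type the median SD was 0.51 at 5 to 10 CPM, 0.26 at 100 to 500 CPM and 0.32 above that. Ribosomal protein genes were even as a list, with a median SD of 0.16, against 0.33 over all tested genes. A range of 4-fold or more was seen in 0 of 16, which is near the 5.37% of all tested genes. Among common reference genes, Tfrc, the transferrin receptor, had 6.55, 7.37, 9.52 and 19.2 FPKM, and Gapdh had 1813, 1310, 1763 and 2335 FPKM.

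The balance of neuronal and Schwann cell genes separated library 4 from the rest. Mean log2 CPM of the 20 pan-neuronal genes was 7.54, 7.39, 7.63 and 8.28 in libraries 1 to 4, and that of the 15 myelinating Schwann cell genes was 8.85, 8.92, 9.05 and 8.11. The difference of the 2 lists was -1.31, -1.52, -1.43 and 0.17. Its range was 1.69 over the 4 libraries and 0.21 without library 4. Library 4 was the highest for 12 of the 20 pan-neuronal genes and the lowest for 14 of the 15 Schwann cell genes. Of the 633 tested genes with a range of 4-fold or more, library 4 was the highest for 251 and the lowest for 177. The share over all tested genes is not given here, so these tallies have no full background. In the 4 knockout libraries the same difference ran from -1.48 to 0.69.

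The pan-neuronal genes did not move as a block. Nefh, the heavy neurofilament chain of large myelinated neurons, had 74.2, 91.5, 169 and 410 FPKM, and Ina, another neurofilament protein, had 3.22, 14.1, 0.886 and 93.1 FPKM. Snap25, of the synaptic release machinery, had 892, 626, 900 and 1972 FPKM. Uchl1, a ubiquitin hydrolase of all neurons, had 1034, 599, 1115 and 1013 FPKM, and Prph, the neurofilament protein of small and peripheral neurons, had 498, 300.1, 522 and 337 FPKM. Nefh was thus 0.0718, 0.153, 0.152 and 0.405 of Uchl1 in FPKM, while P2rx2 was 0.0757, 0.0755, 0.0707 and 0.0823 of it. P2rx2 was 0.157, 0.151, 0.151 and 0.247 of Prph, so against that gene it was highest in library 4. These ratios were chosen after the values were seen. The 2 uneven members, Nefh and Ina, were the 2 of 20 (10%) with a range of 4-fold or more, against 5.37% of all tested genes.

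**Figure D4:**
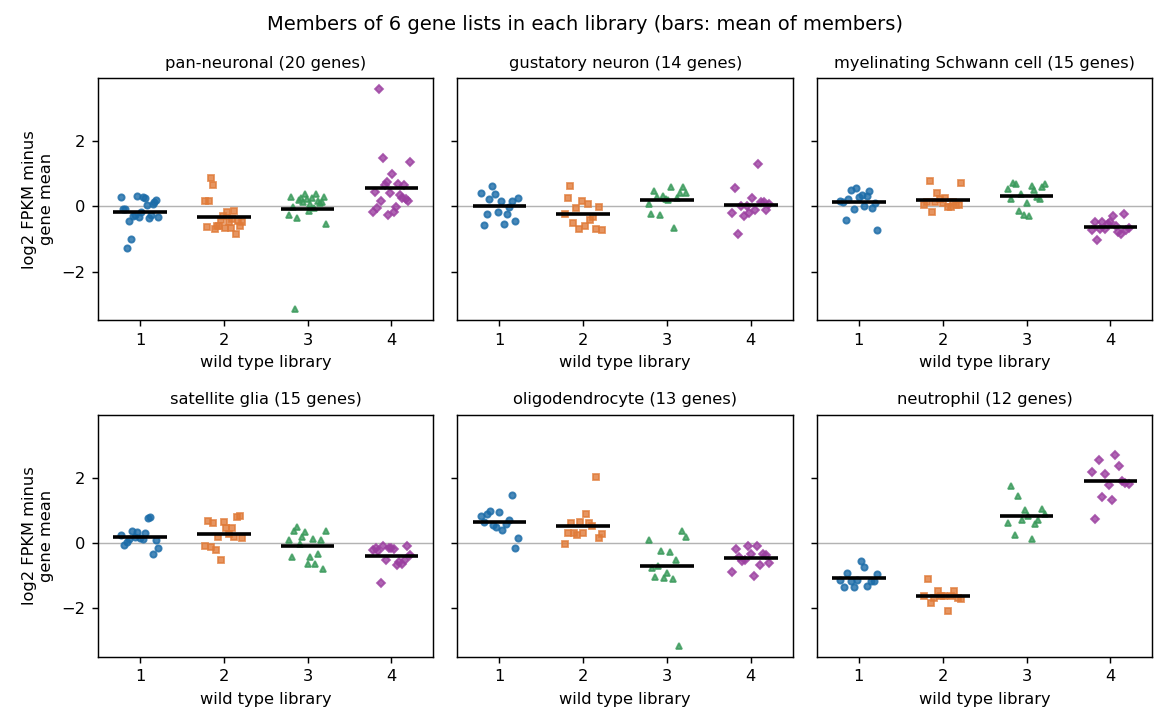
Log2 FPKM of every listed member of 6 gene lists in each wild type library, minus that gene's mean over the libraries; bars are the mean of the members. Schwann cell genes are lower in library 4 as a group, gustatory genes stay near 0, and neutrophil genes are low in libraries 1 and 2 and high in libraries 3 and 4.

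The 5 most variable genes were Gh and Prl, F10, Chia1 and Arg1. Of the 100 genes with the highest SD, 45 were highest in library 4, 38 in library 3, 10 in library 2 and 7 in library 1. Of all 633 genes with a range of 4-fold or more, 251 were highest in library 4 and 176 in library 2. Library 3 was the highest for 162 of them and library 1 for 44. The lowest was library 1 for 173, library 2 for 140, library 3 for 143 and library 4 for 177. Tallies of list members by library below have no share over all tested genes beside them. Over all tested genes, 105 (0.891%) had a library at least 4-fold above the next one, and 58 of these were high in library 4, 32 in library 3, 11 in library 2 and 4 in library 1. Without library 4, 98 genes had such a library, 68 of them library 3, 26 library 2 and 4 library 1. Of the 100 most variable genes over those 3 libraries, 53 were highest in library 3, 40 in library 2 and 7 in library 1, and 45 of the 100 most variable genes and 12 of the 25 were shared with the order over 4 libraries. Another 84 genes (0.713%) had a library at least 4-fold below the next, 43 of them library 4. Each library had its own set, and the sets are given in turn. Genes named there beyond the 25 most variable and the lists were chosen after their values were seen.

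**Figure D5:**
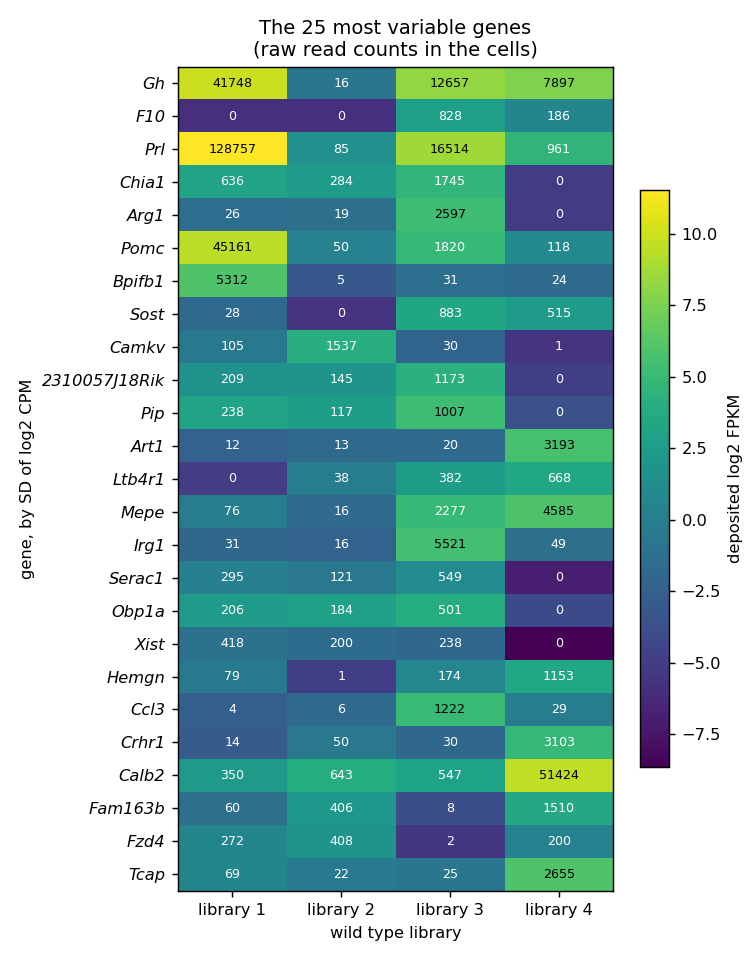
Deposited log2 FPKM (colour) and raw counts (numbers) of the 25 genes with the highest SD of log2 CPM among genes with a mean of 5 CPM or more, one column per wild type library. Gh, Prl and Pomc are highest in library 1, Camkv in library 2, Arg1, Irg1 and Ccl3 in library 3, and Calb2, Art1 and Crhr1 in library 4.

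Library 1 was the highest in pituitary hormones. Gh (chromosome 11, 106300261 to 106301896), growth hormone, had 41748, 16, 12657 and 7897 counts in libraries 1 to 4, or 951, 0.600, 301 and 194 FPKM. Prl (chromosome 13, 27057570 to 27065203), prolactin, had 128757, 85, 16514 and 961 counts, and Pomc (chromosome 12, 3954945 to 3960643), the precursor of ACTH, had 45161, 50, 1820 and 118. Cga, the shared subunit of the glycoprotein hormones, had 28.9, 0.244, 6.10 and 1.48 FPKM. All 4 hormones were highest in library 1 and lowest in library 2, but libraries 3 and 4 differed in their mix. Of the 10 pituitary genes 5 were listed, and their summed FPKM was 4698, 61.8, 814 and 389. None of the listed defining markers Gh, Prl and Pomc was at 0 in any library. The fifth listed gene, Chga, is a granin that neurons also make, and it was highest in library 4 at 168 FPKM. Bpifb1, a secreted protein of airway and oral mucosa, shared the profile of library 1 alone, with 5312 counts there and 5, 31 and 24 in libraries 2 to 4.

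The windows of 250 bases before to 50 after the start of 3 of these hormone genes are shown, because they carry a feature that most genes lack, next to that of Ptgds, the most abundant gene. Sequences are those of RefSeq on GRCm38.p6, read 5′ to 3′ on the strand of the gene (plus for Prl, Pomc and Cga, minus for Ptgds), and capitals mark the motif TATAAA.
Prl, chr13:27057320-27057619: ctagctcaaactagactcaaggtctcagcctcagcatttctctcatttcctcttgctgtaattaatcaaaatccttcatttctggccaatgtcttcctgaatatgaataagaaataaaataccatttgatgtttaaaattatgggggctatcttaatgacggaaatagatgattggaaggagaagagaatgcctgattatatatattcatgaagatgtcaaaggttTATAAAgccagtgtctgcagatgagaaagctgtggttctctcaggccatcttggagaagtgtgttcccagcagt
Pomc, chr12:3954695-3954994: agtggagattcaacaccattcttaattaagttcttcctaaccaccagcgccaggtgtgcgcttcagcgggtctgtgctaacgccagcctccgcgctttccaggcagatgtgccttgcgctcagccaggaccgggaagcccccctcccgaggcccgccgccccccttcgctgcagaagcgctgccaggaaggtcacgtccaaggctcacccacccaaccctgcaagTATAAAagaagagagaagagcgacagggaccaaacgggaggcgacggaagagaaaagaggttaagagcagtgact
Cga, chr4:34893529-34893828: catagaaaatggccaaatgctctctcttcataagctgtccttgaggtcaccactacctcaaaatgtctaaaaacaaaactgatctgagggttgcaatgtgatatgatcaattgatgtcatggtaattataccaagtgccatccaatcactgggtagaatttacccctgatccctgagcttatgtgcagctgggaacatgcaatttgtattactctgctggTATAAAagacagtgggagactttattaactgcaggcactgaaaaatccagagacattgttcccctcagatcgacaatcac
Ptgds, chr2:25469700-25469999: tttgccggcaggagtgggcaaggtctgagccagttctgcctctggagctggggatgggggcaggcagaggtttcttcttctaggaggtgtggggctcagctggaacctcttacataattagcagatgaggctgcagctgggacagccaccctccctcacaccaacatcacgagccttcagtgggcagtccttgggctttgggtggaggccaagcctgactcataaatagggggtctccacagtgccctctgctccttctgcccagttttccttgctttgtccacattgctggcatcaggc
The motif began 24, 25 and 30 bases before the start in Prl, Pomc and Cga, and these exact letters were not found in the Ptgds window on either strand. Near matches were not searched for, so the Ptgds window may hold a similar stretch. No window was available for Gh. In Prl the same letters on the other strand overlap it. On either strand the motif lay in 13.6% of all 32851 windows of this length, in 9 of the 21 windows of the most variable genes and in 5 of the 26 windows of the most abundant genes. Of the 25 genes in each set, 20 and 18 had a window. A match is a description and says nothing of the factor.

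Several genes of the central nervous system were highest in library 2, though the central neuron list as a sum was not. Camkv, a kinase-like protein of forebrain synapses, had 105, 1537, 30 and 1 counts in libraries 1 to 4. Camk2a, the calcium-dependent kinase of excitatory forebrain neurons, had 0.776, 5.78, 0.185 and 0.778 FPKM. Gad1, the enzyme that makes GABA, had 1.55, 7.57, 0.140 and 0.610 FPKM, and Sst, somatostatin, had 3.68, 29.5, 2.01 and 1.44 FPKM. Rasd2, a small GTPase of striatum, and Slc6a11, a GABA transporter of astrocytes, had 19.6 and 6.99 FPKM in library 2 and at most 2.32 and 1.40 FPKM elsewhere. Library 2 was the highest for all 6. They were named for their spread or with their values in view, so that they go together is no result. The central neuron list held 12 of 13 genes, 5 of them highest in library 2, 5 highest in library 4 and 7 lowest in library 3. Its mean log2 CPM was 2.70, 3.54, 1.47 and 2.84, highest in library 2. Its summed FPKM was 75.04, 90.4, 96.6 and 293, highest in library 4. There Calb1, which is also in the vestibular and cochlear list, made up 163 FPKM of the sum. Its defining markers Slc17a7, a glutamate transporter that sensory neurons share, Gabra6 and Pcp2 were not highest in library 2. Slc17a7 was highest in library 4, at 56.6 FPKM, and Pcp2, a Purkinje cell gene, was at 2.95 to 5.11 FPKM in all 4. The defining astrocyte markers Gfap, Aqp4 and Aldh1l1 were each highest in library 2 as well, and whether they share a source with the neuronal genes was not tested.

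Library 3 was the highest in genes of activated myeloid cells. Il1rn, the natural antagonist of interleukin-1, had 379, 66, 10132 and 462 counts in libraries 1 to 4, and Il1b, interleukin-1 beta, had 1.23, 0.455, 38.7 and 3.91 FPKM. Arg1, arginase of alternatively activated macrophages, had 26, 19, 2597 and 0 counts, and Irg1, which makes itaconate, had 31, 16, 5521 and 49. The chemokine genes Ccl3 and Ccl4 had 4, 6, 1222 and 29 counts and 7, 32, 1042 and 23 counts. Hmox1, a heme oxygenase, had 13.3, 18.1, 135 and 19.8 FPKM, and Gpnmb, a glycoprotein of phagocytes, had 3.63, 3.52, 53.9 and 1.62 FPKM. Each of these 8 genes, named for its spread or with its values in view, was at least 4-fold higher in library 3 than in the next library. The resident macrophage markers Cx3cr1 and Csf1r were not, at 14.2, 15.9, 15.5 and 7.43 FPKM and 43.1, 65.8, 41.0 and 42.8 FPKM.

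Secreted proteins of salivary and lacrimal glands formed another set that was highest in library 3, and it was lowest in library 4. Bpifa2, parotid secretory protein, had 6342, 4561, 34362 and 252 counts in libraries 1 to 4, or 136, 148, 769 and 5.86 FPKM. Amy1, salivary amylase, had 23.2, 20.2, 116 and 2.87 FPKM, and Smr3a, a submaxillary gland protein, had 13.6, 12.8, 92.1 and 1.27 FPKM. Pip, Chia1 and Obp1a, also products of glands, had 1007, 1745 and 501 counts in library 3, from 117 to 636 in libraries 1 and 2, and 0 in library 4. A count of 0 in library 4 leaves no fold to be given for these 3. Skeletal muscle genes were also highest in library 3, all 9 of the 9 listed of 13, with summed FPKM of 13.01, 9.75, 48.4 and 14.95. Their levels were low, since only 1 of the 9 reached a mean of 5 CPM.

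Library 4 was the highest in genes of calcium-binding, fast-firing neurons. Calb2 (chromosome 8, 110142538 to 110168206), calretinin, had 350, 643, 547 and 51424 counts in libraries 1 to 4, or 5.06, 13.99, 8.25 and 796 FPKM. Calb1, calbindin, had 9.56, 9.10, 6.74 and 163 FPKM, and Pvalb, parvalbumin, had 19.98, 35.5, 12.8 and 567 FPKM. The potassium channel Kcnc2, which lets neurons fire fast, had 1.69, 2.23, 2.12 and 14.6 FPKM. The nicotinic receptor subunits Chrna4 and Chrna6 had 11.8 and 18.7 FPKM in library 4 and at most 1.04 and 2.32 FPKM elsewhere. Hapln4, a link protein of perineuronal nets, had 3.65, 7.30, 7.22 and 66.1 FPKM, and Crhr1, the receptor of corticotropin-releasing hormone, had 14, 50, 30 and 3103 counts. Library 4 stood alone for all of these, but those outside the lists were named for their spread or with their values in view. The gustatory genes P2rx2 and Tlx3 were within the range of the other libraries or close above it. Of the 10 genes of the vestibular and cochlear list, 9 were listed and 6 of these were highest in library 4. The range of that list in mean log2 CPM was 1.94 over the 4 libraries and 0.43 without library 4. Without library 4 the range was 0.19 for the pan-neuronal list and 0.18 for the myelinating Schwann cell list, against 0.89 and 0.94 with it. Gata3, a defining marker of the vestibular and cochlear list, had 0.129, 0.0718, 0.382 and 0.662 FPKM.

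Genes of bone marrow were high in library 4 and next in library 3. All 12 neutrophil genes had a range of 4-fold or more, against 5.37% of all tested genes. Of the 12, 10 were highest in library 4 and 11 lowest in library 2. Of all 633 genes with such a range, 251 were highest in library 4 and 140 lowest in library 2. S100a8, an abundant cytosolic protein of neutrophils, had 162, 113, 747 and 1283 FPKM, and Ngp, a granule protein of immature neutrophils, had 71.1, 57.1, 260 and 896 FPKM. Mpo, the peroxidase of the earliest granules, had 9.30, 3.69, 16.97 and 100.2 FPKM. Csf3r, the receptor of mature neutrophils for G-CSF, had 1.75, 2.08, 14.99 and 7.43 FPKM and was highest in library 3. The ratio of Mpo to Csf3r in FPKM was therefore 5.32, 1.78, 1.13 and 13.5. Summed FPKM of the list was 565, 386, 2291 and 4633, and no defining marker was at 0.

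Erythroid genes were highest in library 4 too, and bone genes were mixed. Alas2, the first enzyme of heme synthesis in red cells, had 143, 151, 239 and 439 FPKM, and the 5 listed of 10 erythroid genes were all highest in library 4. Hemgn, a nuclear protein of blood precursors, had 79, 1, 174 and 1153 counts. Of the 15 listed bone and cartilage genes, 8 were highest in library 4, 7 lowest in library 2 and 6 lowest in library 3, with summed FPKM of 675, 483, 537 and 2423. Mepe and Sost, products of osteocytes, had 76, 16, 2277 and 4585 counts and 28, 0, 883 and 515 counts, so they were high in libraries 3 and 4. Bglap, the osteocalcin of osteoblasts, had 109, 76.3, 41.6 and 120 FPKM and was lowest in library 3. Spp1, osteopontin, had 284, 186, 281 and 1982 FPKM, so this gene made up most of the sum of the bone list in library 4. Mean log2 CPM of that list, in which 1 gene weighs less, was 4.20, 3.67, 4.47 and 5.06. Mepe is outside the bone list. Without library 4 the range in mean log2 CPM was 2.40 for the neutrophil list, 1.32 for the erythroid list and 0.75 for the bone list, against 3.51, 2.49 and 1.40 with it. A few of the 25 most variable genes fell in no such group. F10, the coagulation factor X, had 0, 0, 828 and 186 counts in libraries 1 to 4, and Serac1, a mitochondrial lipid protein, had 295, 121, 549 and 0 counts. Tcap, a sarcomere protein, had 69, 22, 25 and 2655 counts, so it was highest in library 4 while the 9 muscle genes were highest in library 3. The part of bone and marrow genes in the other differences of libraries 3 and 4 was not tested.

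Strand-aware counting is not given in the sources used here, so reads of overlapping genes cannot be told apart. Of 118 genes named here and found in the GENCODE M21 annotation, 13 share exon bases with another listed gene. Among them are Amy1 with 1128 bases, Nefl with 1108, Pcp2 with 941, Csf1r with 873, Ina with 456, Serac1 with 297 and Acaa1a with 290. Tuba1a, Amy1 and Bglap also have near-identical copies in the genome, so their levels are uncertain.

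Much of this unevenness recurred in the other genotype. Among 11392 genes with a mean of 5 CPM or more in both genotypes, 493 had a range of 4-fold or more in wild type and 646 in knockout libraries. Without wild type library 4, 220 genes had it in wild type and 113 of these in knockout libraries. The 221 genes with such a range in both, over all libraries, were 44.8% of the first list and 34.2% of the second, where 5.67% of the 11392 genes had that range in knockout libraries. Over all genes tested in knockout libraries, 6.67% had it. Of the 25 most variable wild type genes, 12 reached 5 CPM in knockout libraries, and 10 of these had a 4-fold range there. Of the 100 most variable, 54 reached it and 42 of these had such a range. The other 13 and 46 genes lay below that level in knockout libraries, where 13 and 38 had a 4-fold range, but 41.7% of all 396 wild type tested genes below it did as well. Fzd4, a Wnt receptor with 272, 408, 2 and 200 counts in wild type libraries 1 to 4, had a wild type SD of 3.20 and a knockout SD of 0.53, and it was one of the 2 of the 25 without a 4-fold range in knockout libraries. Across the 11392 genes, Spearman's rho between the SD in wild type and in knockout libraries was 0.51, a description in which genes are not independent. Over the genes at 5 CPM or more in each genotype, the median SD was 0.33 in wild type and 0.33 in knockout libraries. The common coefficient of variation over all listed genes was 46.1% in wild type and 47.2% in knockout libraries.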

How the data were processed

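Whole geniculate ganglia of 4 wild type and 4 Egr4 knockout mice were measured by RNA-seq. The table deposited by the authors gives raw read counts per gene and, computed by them, log2 FPKM. Tools listed by the submitters' processing notes are STAR 2.5, edgeR 3.12.1, Subread 1.5.1 with featureCounts, and FastQC 0.11.5, with mm10 as the build. The filter on listed genes is not given in the sources used here.

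Deposited log2 FPKM values were recomputed from the counts with a prior count of 2 and TMM over all 8 libraries, and the largest difference was 5e-14. FPKM levels are these values taken off the log scale, so a count of 0 stands slightly above 0. Wild type counts were scaled by TMM in edgeR 4.0.16 (R 4.3.3). Spread is the SD of log2 CPM (prior count 2) over the genes with a mean of 5 CPM or more. A range of 4-fold or more between the highest and lowest library was counted as large. The spread calculation was tested on simulated data. No knockout against wild type comparison was made, and no p-value was computed.

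Libraries total 30849310 to 48571434 counts in wild type. Each group was set by the genotype label. The labels name 4 mice per genotype, and no library was a copy of another, since chi-square divided by its degrees of freedom was 124 or more for every pair of wild type libraries.

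The wild type libraries and the 33 gene lists were chosen with earlier results of these data known. The genes to be named were the 25 most abundant, the 25 most variable, the 10 least variable at a mean of 100 CPM or more, Xist, and from each list its defining markers and up to 4 of its most abundant members. Other genes were picked for naming with their values in view. As alternatives, the values were recomputed with other scalings (RLE, library size alone), the deposited log2 FPKM, TPM, other minimum levels, other prior counts, an 8-fold limit, the trend of DESeq2 1.42.0, list medians and each library left out. Some genes that the rule names are not reported here. Leaving wild type library 4 out of the recurrence, list ranges and single-library counts, and splitting the recurrence by knockout level, were added after seeing the data.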

Additional observations from a re-analysis of the deposited data

Results flagged for a closer look

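In 154 groups of 4 wild type values (119 named genes, the 33 lists and 2 summary values), the highest or lowest library was compared with the rest by Dixon's ratio, the gap to the nearest library divided by the whole range, with a limit of 0.829. Chance alone passes about 1 in 20 groups, or 7.70 here, and 16 passed. Many of the genes were chosen for their spread, so the 2 numbers cannot be set against each other as a test.

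Library 4 stood apart in 9 of them. It was high for Art1 (ratio 0.911), Calb1 (0.891), Kcnc2 (0.872), Chrna6 (0.852) and the difference of neuronal and Schwann cell genes (0.874). It was low for Piezo2 (0.921), Xist (0.901), Cx3cr1 (0.849) and Obp1a (0.83).

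Library 2 stood apart in 6. It was high for Aldh1l1 (0.927), Csf1r (0.897) and Slc2a1 (0.874), and low for P2rx2 (0.898), Scn10a (0.849) and Uchl1 (0.846). It also had the fewest counts, and the part of depth in these differences was not tested. Library 3 stood apart for Irg1, where it was high (0.864).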

How the results depend on the processing

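No paired analysis was possible because the results describe 1 genotype and come from no test between groups. The 6103 genes at 10 FPKM or more became 8367 as TPM and 5273 when all 4 libraries had to reach 10. The 100 most abundant genes held 23.6% of raw counts, against 28.3% of FPKM. The 633 genes with a 4-fold range became 1653 at a mean of 1 CPM or more, 2198 with no minimum, 165 at 20 CPM or more and 224 at 8-fold, and 290 to 541 with a library left out. The coefficient of variation of 46.1% became 34.1% over genes at 5 CPM or more and 20.5% by the DESeq2 trend, and ran from 39.9% to 48.9% with a library left out. The range of the neuronal and Schwann cell difference, 1.69, ran from 0.21 (without library 4) to 1.69 with a library left out and was 1.83 with list medians. The median SD of 0.33 became 0.37 at 1 CPM or more and 0.38 with no minimum, and ran from 0.28 to 0.32 with a library left out. The 221 genes with a 4-fold range in both genotypes became 113 without library 4, an alternative chosen after seeing the data. Lower minimums and fewer libraries change which genes and values enter; other causes were not tested. Under RLE, library size alone and deposited log2 FPKM, gene SDs moved by at most 0.034 (F10) and list ranges by at most 0.060 (ribosomal protein genes) on the log2 scale. The 33 lists were each highest in the same library under these 3. An SD from 4 libraries is itself imprecise, and genes below 5 CPM were not ranked for spread.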

Other observations

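The mix of the pituitary hormones differed between libraries, as a pattern noticed in the data and not tested. The ratio of Prl to Gh in CPM was 3.08, 5.31, 1.305 and 0.122 in wild type libraries 1 to 4, and 0.0306, 0.136, 1.13 and 14.3 in knockout libraries 1 to 4. It was above 1 in the 5 libraries with Xist reads and below 1 in the 3 libraries without, which are wild type library 4 and knockout libraries 1 and 2. Some of these ratios rest on few reads, since Gh stood at 0.506 CPM in wild type library 2 and at 0.0688 CPM in knockout library 4.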
